A study of Mus musculus with 16 samples.

Results

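Cardiomyocytes of the mouse left ventricle were compared between stages 5w and 2w after transverse aortic constriction (TAC), a narrowing of the aorta that makes the ventricle pump against a raised pressure. The members are the cells annotated by the authors as CM, in mice with at least 10 of them. They number 636 in 2w_1 and 529 in 2w_2, and 54 in 5w_1, 561 in 5w_4, 602 in 5w_5, 459 in 5w_6 and 340 in 5w_7. Together they are 3181 of the 5656 CM cells, and of the 11492 cells, of 16 mice. Mice 5w_2 and 5w_3 had 0 CM cells. All mice are male, and the stage is the single label that separates the groups: strain, age and the details of the surgery are not in the labels. Per the labels' protocols, ventricle slices were digested in 1 of 2 ways, with protease XXIV and collagenase II for a yield rich in myocytes or with a papain enzyme for the other cells. The labels do not say which cells came from which digest. Cells were counted by unique molecular identifiers (UMIs) of polyadenylated RNA, and the UMIs of a mouse's cardiomyocytes were summed, so that the mouse is the replicate.

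Cardiomyocytes contract through sarcomeres, in which myosin thick filaments pull on actin thin filaments anchored at the Z-disc and spanned by titin. Each beat is set off by calcium released from the sarcoplasmic reticulum and is paid for by mitochondria that burn mainly fatty acids. Under pressure load, myocytes grow and switch on a known set of stress and fetal genes, among them the natriuretic peptides, Ankrd1 and the slow myosin Myh7. Inflammation and the deposition of matrix by fibroblasts accompany this growth.

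The 7 sums held from 926680 (5w_1) to 27690918 (2w_1) non-mitochondrial UMIs, and mitochondrially encoded genes took 57.2% and 47.3% of the UMIs at 2w, 44% in 5w_1 and 67.6% to 85.7% in the other mice at 5w. The chips or plates named in the cell names are lettered here, and none holds both stages. Cells of 2w came from plate C (82.6% of its cells were CM) and plate D (15.9%), 5w_1 from plate E (14%), 5w_4 and 5w_5 from plate G (93.6%) and 5w_6 and 5w_7 from plate H (93.8%). Stage and plate therefore cannot be told apart. Per CM cell of plates G and H, the non-mitochondrial total came to a median of 0.542 to 0.806 of the authors' UMI number, against 1 in the other mice, and 0 cell names were shared by mice. The annotation's subclusters followed the same lines, with CM3 holding 73.7% of the plate C cells of 2w_1, CM2 64.9% of those of 2w_2, and CM5 78.5% and 59.7% of the plate D cells of 2w_1 and 2w_2 and 85.2% of 5w_1.

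The cell label was checked against markers. The 10 cardiomyocyte markers, such as Myh6, Tnnt2 and Ttn, summed to 83108 and 109568 CPM, UMIs scaled to a common library total, at 2w and to 79715, 67170, 85351 and 58580 CPM in 5w_4 to 5w_7, all 10 being detected at both stages. In 5w_1 they reached 13750 CPM. The same mouse carried 9306 CPM of the 9 fibroblast markers against 1360 to 3613 CPM in the other 6 mice, and 3241 CPM of the macrophage markers against 73.8 to 731 CPM. Its 54 cells thus went against their label in part, as did the 2w cells of plate D, which held 29312 and 20571 CPM of cardiomyocyte markers. Erythroid markers summed to 24347 and 18149 CPM at 2w, 37903 CPM in 5w_1 and 375, 8663, 3798 and 4516 CPM in 5w_4 to 5w_7. Within 2w_1 and 2w_2 they stood at 125395 and 30212 CPM on plate D and at 3263 and 15958 CPM on plate C. Results below are those of the 6 mice without 5w_1 unless stated otherwise. With 5w_1 in the fit none of their calls held in edgeR, and the value with it is given where the sign of a called gene named here turned. The effect of counting the 2w cells of plate C alone, a choice made after seeing the data, is given beside the genes it touches.

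**Figure D1:**
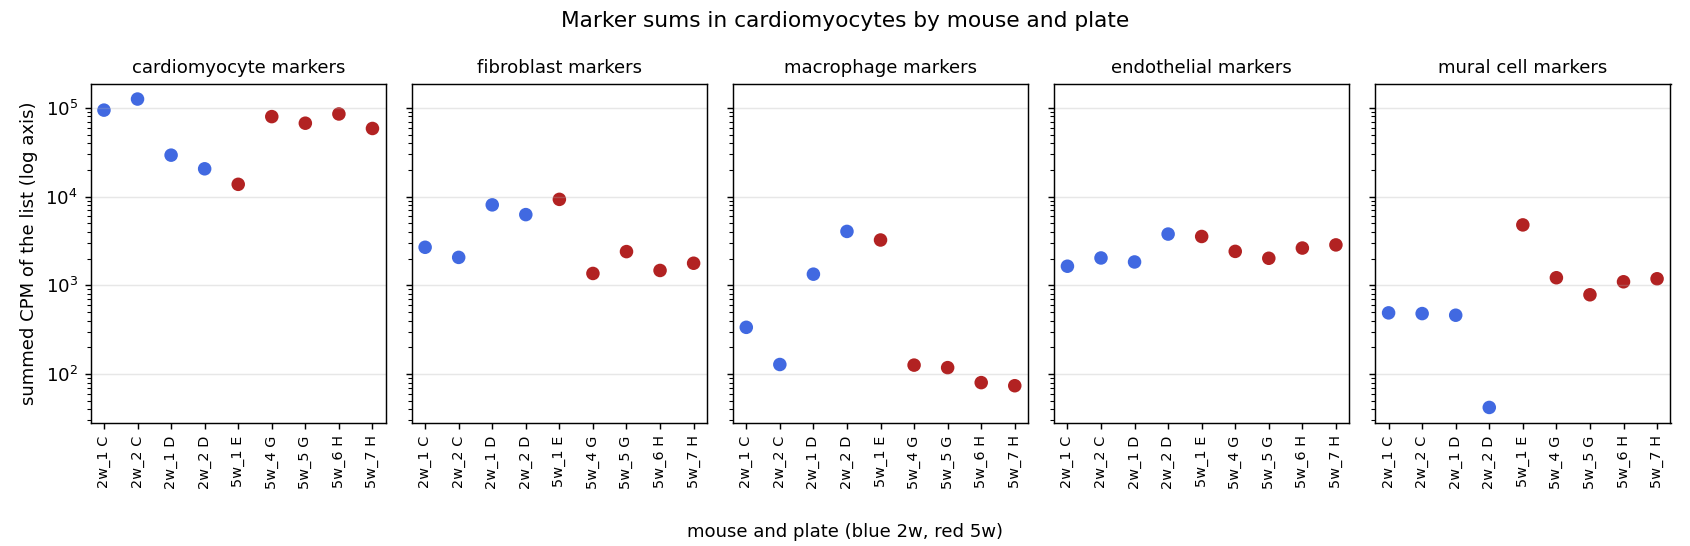
Summed CPM of 5 marker lists in annotated cardiomyocytes, on a log axis, for each mouse and plate (blue 2w, red 5w; 1 point is 1 mouse on 1 plate). The 2w cells of plate D and 5w_1 on plate E held fewer cardiomyocyte markers (13750 to 29312 CPM) and more fibroblast and macrophage markers than the cells of plates C, G and H.

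In 6 mice, 211 of 13920 genes passed an adjusted p of 0.05 (1.52% of the genes tested), 110 higher at 5w (0.79%) and 101 lower (0.726%). These shares are those to set beside the counts of called genes per list below. An unadjusted p under 0.05 was found for 2415 genes. With all 7 mice 0 of 13495 genes passed edgeR's quasi-likelihood test (percent called 0), 784 had an unadjusted p under 0.05, and DESeq2 called 144. Of the 211 genes, 199 had the same sign with 5w_1 in the fit. The number called without one further mouse was 44 (2w_1 left out), 52 (2w_2), 93 (5w_4), 142 (5w_5), 58 (5w_6) and 143 (5w_7). Without scaling factors 71 genes were higher and 232 lower, since the median log2 fold change of all genes then moved from -0.00 to -0.24. With the 2w cells of plate C alone 293 of 13893 genes passed (2.11%), 171 higher (1.23%) and 122 lower (0.878%), with 155 of them among the 211, which is 73.5% of the first set and 52.9% of the second, all 155 with the same sign. Nothing in the labels says that the mice were processed separately, so the p-values measure the spread between these sums.

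The stress gene Ankrd1 was lower at 5w, and so were Nmrk2 and Flnc, while the natriuretic peptides Nppa and Nppb and the slow myosin Myh7 did not pass. Ankrd1 encodes a load-responsive protein of the sarcomere and nucleus. It stood at 5742 and 4910 CPM in 2w_1 and 2w_2 and at 1186, 1823, 1692 and 921 CPM in 5w_4 to 5w_7, with 171 CPM in 5w_1. The groups did not overlap, and the highest mouse at 5w stood far below the lower 2w mouse (log2 fold change -1.93 ± 0.27 SE, adjusted p = 0.0128 in 6 mice, -2.20 ± 0.66, adjusted p = 0.771 in 7). Counting plate C alone gave -2.04 (adjusted p = 0.0072). Nmrk2, which encodes a kinase that makes NAD from nicotinamide riboside, stood at 58.1 and 45.2 CPM at 2w, at 8.46, 4.08, 3.24 and 2.06 CPM in 5w_4 to 5w_7 and at 0.913 CPM, which is 1 UMI, in 5w_1. It had the larger fall of these genes (-3.53 ± 0.51, adjusted p = 0.0137). Flnc, a filamin that crosslinks actin at the Z-disc and intercalated disc, stood at 130 and 185 CPM at 2w and at 30, 37.5, 42.4 and 33.5 CPM in 5w_4 to 5w_7 (-2.14 ± 0.25, adjusted p = 0.00847), a narrow band at 5w.

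The share of cells with an Ankrd1 UMI carried less of this difference than the level. In cells thinned to 2000 non-mitochondrial UMIs it was 93.3% and 92.6% of CM at 2w and 77.4%, 85.3%, 89.1% and 51.9% in 5w_4 to 5w_7, on 339 to 608 cells per mouse (97.8% and 95.8%, and 94.5%, 92.7%, 99.8% and 79.1%, before thinning). Macrophages, which should lack Ankrd1, had it in 51.9% and 63.5% of 183 and 156 thinned cells at 2w and in 54.5% to 81.5% of the 11 to 27 cells of these mice at 5w. Their median depth was 19849 and 14564 non-mitochondrial UMIs at 2w, against 17644 and 13045 in CM. The CM shares lay above this background at 2w, and at 5w they overlapped it. The background differed between mice and did not follow the stage. Myh6 was found in 54.6% and 66.7% of the thinned macrophages at 2w and in 100% of those in 5w_4 to 5w_7. In 5w_1, with 248 thinned macrophages, Myh6 was found in 26.2% and Ankrd1 in 3.23%. Such RNA can enter the summed CPM of CM cells as well, and its part was not tested.

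Nppb, the brain natriuretic peptide gene, stood at 648 and 719 CPM at 2w and at 484, 628, 1256 and 757 CPM in 5w_4 to 5w_7 (log2 fold change 0.19 ± 0.33, adjusted p = 0.824). The 2w mice lay inside the range of the 5w mice, and 5w_1 held 1.83 CPM. Nppa, the atrial peptide gene, stood at 170 and 76.5 CPM against 64.5, 208, 100 and 96.8 CPM (-0.09 ± 0.44, adjusted p = 0.943). Myh7 stood at 762 and 1046 CPM against 990, 1833, 924 and 1005 CPM (0.38 ± 0.30, adjusted p = 0.552), with 5w_5 apart from the rest. Acta1, the skeletal actin re-expressed under load, stood at 1600 and 2912 CPM against 374, 529, 1522 and 1002 CPM. Its groups did not overlap, yet its spread was wide (-1.40 ± 0.47, adjusted p = 0.16). Of 21 fetal and hypertrophy genes tested, 3 were called lower and 0 higher, 17 were negative, and the median log2 fold change was -0.64 against -0.00 over all genes. Of these, 8 lay below both 2w mice in every mouse at 5w, against 15.2% of all genes (12.9% lay above). The list shares Nppa, Myl4 and Myl7 with the 6 atrial markers. These markers summed to 3838 CPM in 2w_1 and 183 CPM in 2w_2, against 123, 1303, 150 and 439 CPM in 5w_4 to 5w_7. The part of atrial RNA in the list's median was not tested.

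**Figure D2:**
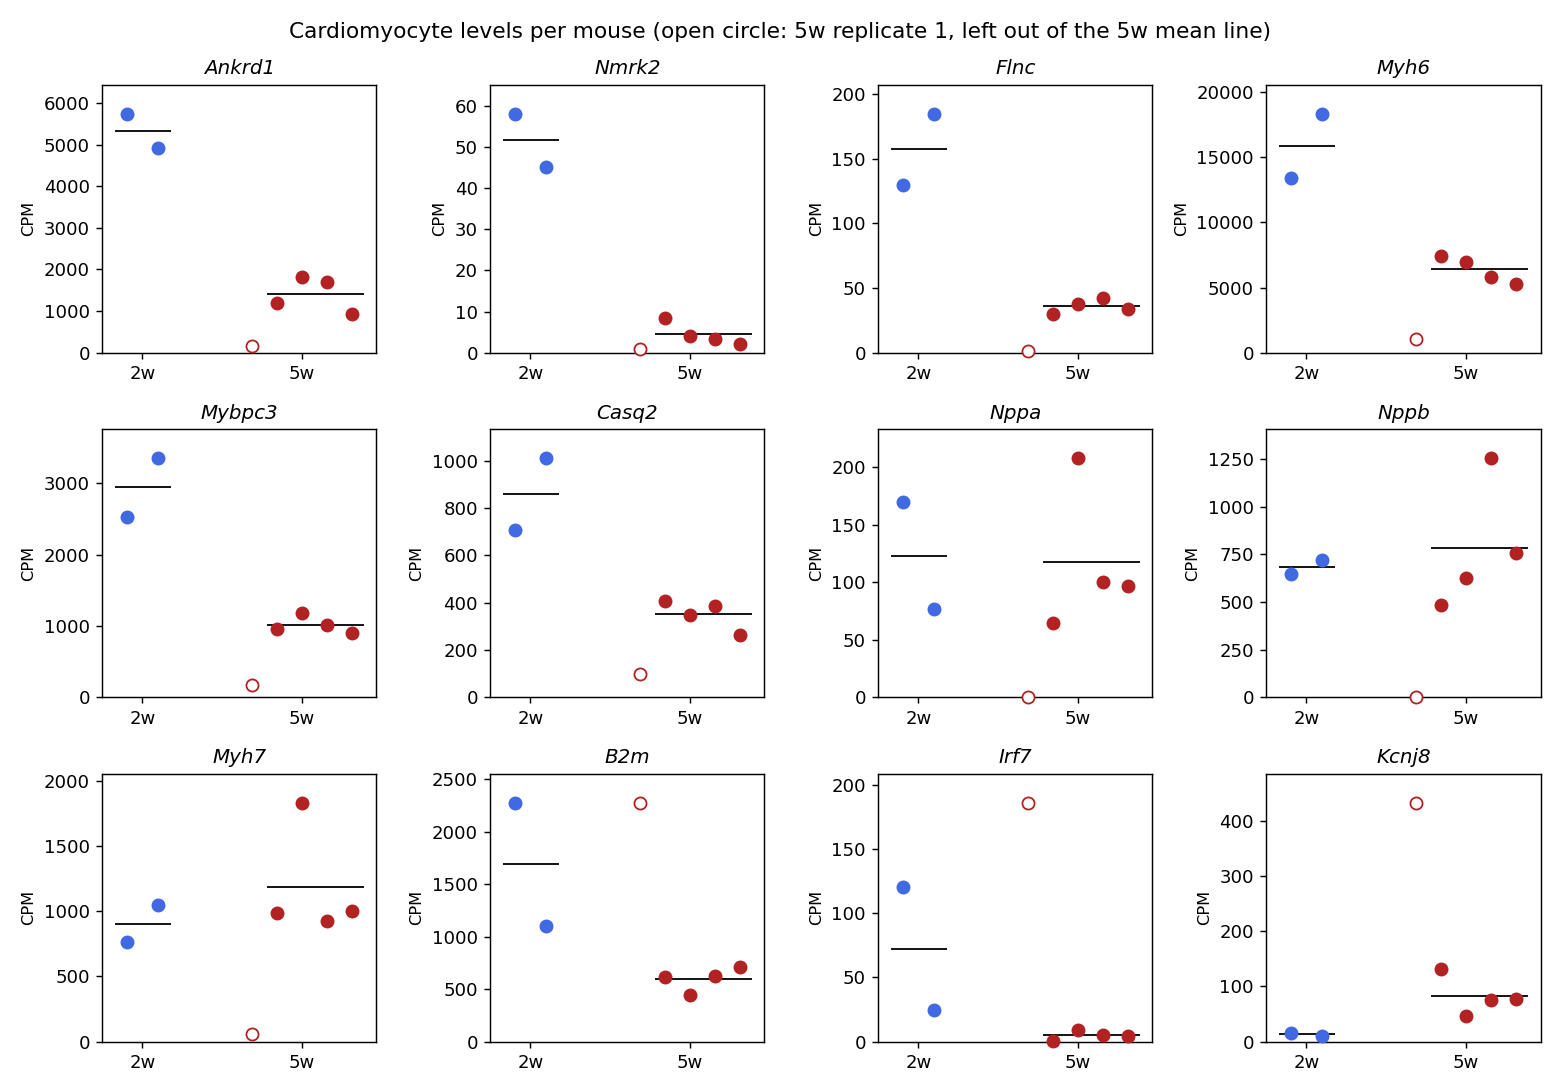
CPM per mouse of 12 genes in cardiomyocytes at 2w (blue) and 5w (red), on linear axes from 0, with lines at the group means and 5w_1 as an open circle outside the 5w mean. Ankrd1, Nmrk2, Flnc, Myh6, Mybpc3 and Casq2 lie lower in all mice at 5w, Nppa, Nppb and Myh7 overlap, and B2m, Irf7 and Kcnj8 show 5w_1 apart from the other mice at 5w.

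In the thick filament, the fast adult myosin and its binding protein were lower at 5w, while Ttn and the actin Actc1 did not pass. Myh6, the main myosin heavy chain of the adult mouse ventricle, stood at 13438 and 18364 CPM at 2w and at 7452, 6964, 5842 and 5310 CPM in 5w_4 to 5w_7. All 4 were below both 2w mice (log2 fold change -1.33 ± 0.21, adjusted p = 0.0222), and 5w_1 held 1027 CPM. Mybpc3, the cardiac myosin-binding protein C that tunes crossbridge cycling, stood at 2532 and 3356 CPM against 952, 1185, 1019 and 903 CPM (-1.55 ± 0.20, adjusted p = 0.00986). Ttn, the giant spring of the sarcomere, stood at 10716 and 14513 CPM against 8639, 9577, 8718 and 8069 CPM, a non-overlapping but smaller step that did not pass (-0.54 ± 0.20, adjusted p = 0.198). Actc1, the cardiac actin, gave -0.54 ± 0.27 (adjusted p = 0.333). Of 11 thick filament genes 2 were called lower and 0 higher, with a median of -0.64, against 0.726% and 0.79% of all genes tested. DESeq2 called 4 lower and 1 higher, and plate C alone 5 lower and 0 higher. Myl2, of the same list, went the other way and did not pass in edgeR (0.80 ± 0.20, adjusted p = 0.0758). It stood at 12056 and 13921 CPM at 2w and at 23450, 22604, 24573 and 20679 CPM in 5w_4 to 5w_7, with 1829 CPM in 5w_1. Of 12 thin filament genes 0 were called in either direction, with 9 positive and a median of 0.15, while 2 had an unadjusted p under 0.05 and DESeq2 called 2. Without scaling factors the thin filament median was -0.08 and 6 of 12 were positive.

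The 250 bases before the transcription starts of Ankrd1 and Myh6, the stress gene and the myosin gene that were lower at 5w, are printed because both hold the letters CATTCC. This is the core of the M-CAT element, bound by TEAD factors in muscle genes. Capitals mark the matches, found on either strand and read here on the other strand. Both come from RefSeq on build GRCm38.p6, Ankrd1 at chr19:36119845-36120094 and Myh6 at chr14:54966608-54966857, each on the minus strand, just upstream of the first exon. The Ankrd1 matches begin 210 and 123 bases before the start and the Myh6 match 206 bases before it.
Ankrd1: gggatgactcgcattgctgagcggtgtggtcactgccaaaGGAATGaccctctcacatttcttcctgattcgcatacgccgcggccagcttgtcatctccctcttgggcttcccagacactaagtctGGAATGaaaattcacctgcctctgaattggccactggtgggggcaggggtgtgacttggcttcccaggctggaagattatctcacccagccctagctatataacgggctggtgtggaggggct
Myh6: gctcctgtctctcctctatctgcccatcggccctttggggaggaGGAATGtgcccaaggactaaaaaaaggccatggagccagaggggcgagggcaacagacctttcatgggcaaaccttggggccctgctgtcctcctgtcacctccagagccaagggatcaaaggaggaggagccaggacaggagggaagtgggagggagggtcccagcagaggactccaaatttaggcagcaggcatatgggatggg
Of 9 called muscle genes with an entry (Ankrd1, Myh6, Mybpc3, Ckm, Ckmt2, Flnc, Nmrk2, Casq2 and Jph2), 3 hold the letters (Ankrd1, Flnc and Myh6), against 12.6% of 32851 windows of the same length. A gene counted as a match if any of its windows held the letters, while 12.6% is a share of single windows, so the counts are not on the same footing. A match describes the letters only.

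Casq2, Srl and Jph2, genes of calcium storage and of the coupling of its release to the surface membrane, were lower at 5w, and the calcium pump and its brake did not pass. Casq2, the calcium-binding calsequestrin of the sarcoplasmic reticulum, stood at 707 and 1011 CPM at 2w and at 405, 347, 386 and 262 CPM in 5w_4 to 5w_7 (log2 fold change -1.30 ± 0.23, adjusted p = 0.0286). Srl, the reticulum glycoprotein sarcalumenin, stood at 576 and 685 CPM against 194, 198, 241 and 216 CPM (-1.58 ± 0.19, adjusted p = 0.00847). Both sets of values left a wide gap between the stages. Jph2, the junctophilin that holds the reticulum to the T-tubule, gave -1.33 ± 0.26 (adjusted p = 0.0376), from 105 ± 20.6 CPM (SD, n = 2) to 42.2 ± 7.22 (n = 4). Atp2a2, the calcium pump SERCA, stood at 5133 and 6663 CPM against 5424, 4856, 6269 and 4746 CPM (-0.16 ± 0.21, adjusted p = 0.748). Pln, the phospholamban that restrains it, gave -0.01 ± 0.22 (adjusted p = 0.989), and the 2 stages overlapped for both. Of 22 calcium cycling genes 3 were called lower and 0 higher, against 0.726% and 0.79% of all genes tested. Of the 22, 18 were negative, and the median was -0.57.

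Genes of energy supply lay mostly on the negative side, with few called. Ckm, the cytosolic creatine kinase of muscle, stood at 834 and 1011 CPM at 2w and at 370, 376, 478 and 449 CPM in 5w_4 to 5w_7 (log2 fold change -1.15 ± 0.20, adjusted p = 0.0255). Ckmt2, its mitochondrial partner, stood at 1416 and 1726 CPM against 752, 603, 665 and 632 CPM (-1.26 ± 0.19, adjusted p = 0.0157). Both creatine kinases were lower in each of the 4 mice than in either 2w mouse, and 5w_1 held 110 and 182 CPM of them. Mdh2, the malate dehydrogenase of the citric acid cycle, stood at 1203 and 1233 CPM at 2w and at 529 ± 57.7 CPM (n = 4) in 5w_4 to 5w_7, and at 509 CPM in 5w_1, which here lay with the other mice (-1.21 ± 0.18, adjusted p = 0.0173). It was the 1 gene called of 31 citric acid cycle and pyruvate entry genes, 26 of which were negative (median -0.43). Ndufv1, a core subunit of complex I, fell from 657 ± 15 CPM (n = 2) to 306 ± 30.6 (n = 4), with a log2 fold change of -1.11 ± 0.18 (adjusted p = 0.0222). It was the 1 gene called of 37 nuclear complex I genes (28 negative, median -0.28). For both lists, the share called over all genes tested was 1.52%, with 0.726% called lower.

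In complexes III to V, 2 genes were called lower and 1 higher of 39 (29 negative, median -0.23), against 0.726% and 0.79% of all genes tested. Uqcrc1, a core protein of complex III, and Atp5d, a subunit of the ATP synthase, had log2 fold changes of -1.20 ± 0.19 (adjusted p = 0.0178) and -1.06 ± 0.20 (adjusted p = 0.0362). Atp5h, another ATP synthase subunit, went the other way, from 3065 and 2282 CPM at 2w to 7602, 7152, 5825 and 5462 CPM in 5w_4 to 5w_7 (1.27 ± 0.23, adjusted p = 0.0312), with 846 CPM in 5w_1. Without scaling factors Atp5h was not called. Of 29 fatty acid oxidation genes 0 were called, 20 were negative, and the median was -0.34. In all 4 mice 13 of them lay below both 2w mice, against 15.2% of all genes tested. Of 28 glycolysis and glycogen genes 0 were called and 21 were negative (median -0.37). At an unadjusted p under 0.05 there were 9 genes in each of these lists, plate C alone called 2 and 1, and DESeq2 called 5 and 0. Mb, the oxygen store myoglobin, Cd36, the fatty acid transporter, and Pdk4, the kinase that shuts pyruvate out of mitochondria, had log2 fold changes of -0.38 ± 0.21, 0.36 ± 0.24 and -1.12 ± 0.69 (adjusted p = 0.39, 0.486 and 0.451). Nrf1, a transcription factor of mitochondrial genes, was higher (2.58 ± 0.47, adjusted p = 0.0312) and is described with the other higher genes.

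**Figure D3:**
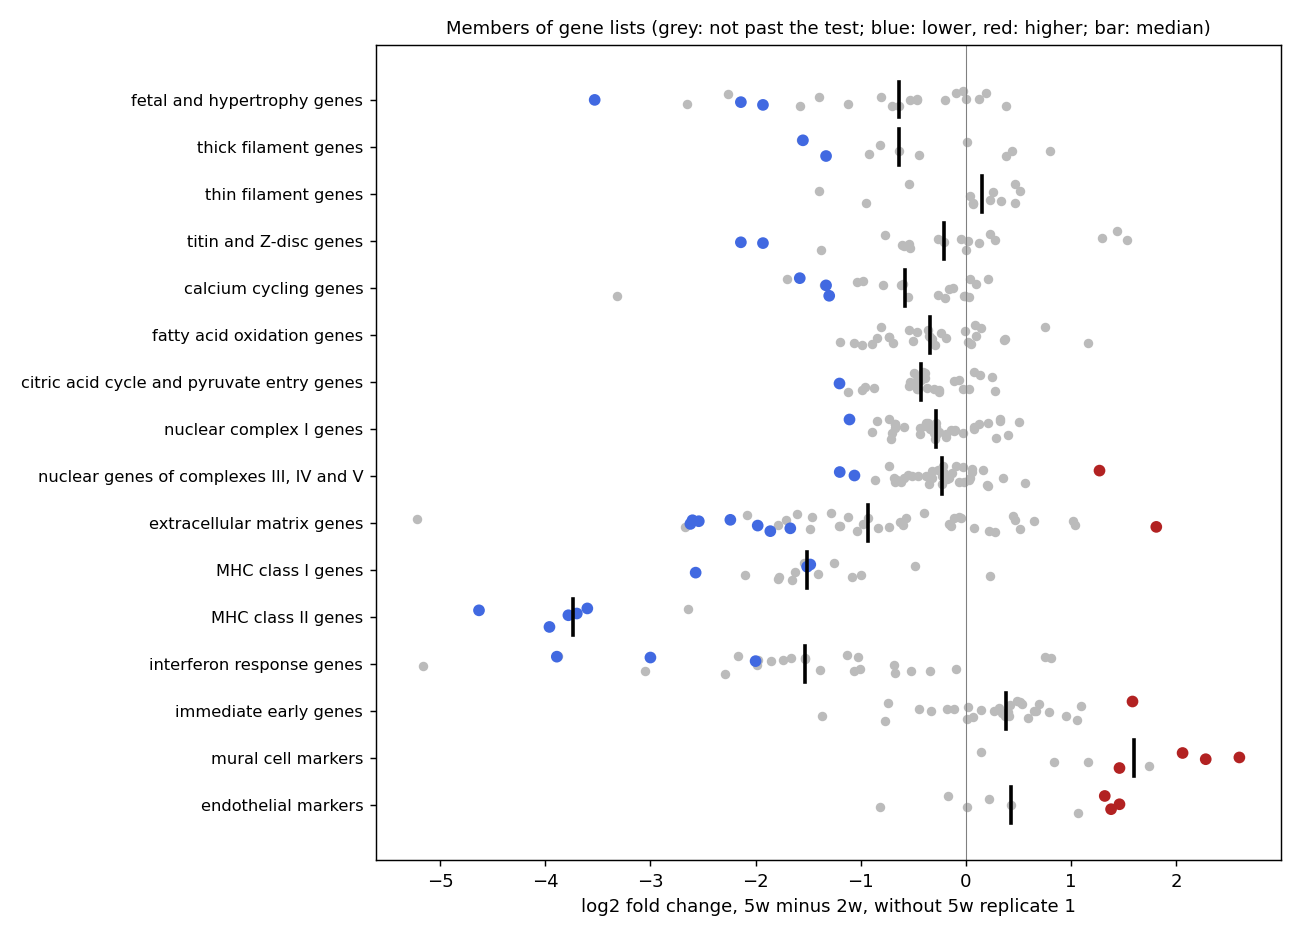
Log2 fold changes (5w minus 2w, without 5w_1) of the tested members of 16 gene lists, 1 point per gene, with blue and red for genes called lower and higher, grey for the rest and a bar at the median. The MHC class II, interferon response, MHC class I and matrix lists have the lowest medians (-3.74, -1.53, -1.51 and -0.93) of those drawn, and mural cell markers the highest (1.60).

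Of 43 matrix genes tested in the cardiomyocyte sums, 7 were called lower at 5w and 1 higher, 33 were negative, and the median log2 fold change was -0.93. In 7 mice 0 were called (6 at an unadjusted p under 0.05), 27 were negative, and the median was -0.37. Col3a1, a fibrillar collagen, stood at 472 and 314 CPM at 2w and at 64.5, 24.5, 108 and 62.4 CPM in 5w_4 to 5w_7 (log2 fold change -2.60 ± 0.43, adjusted p = 0.0222), while 5w_1 held 454 CPM. Postn, the periostin of remodelling tissue, stood at 71 and 116 CPM against 26.8, 26.4, 29.1 and 35.9 CPM (-1.67 ± 0.28, adjusted p = 0.0246), with 12.8 CPM in 5w_1, so that all 5 mice at 5w lay below 2w. Col5a1, a regulatory collagen (-2.24 ± 0.40, adjusted p = 0.0288), Fbn1, the microfibril protein fibrillin (-1.98 ± 0.32, adjusted p = 0.0222), and Mfap5, another microfibril protein (-2.54 ± 0.50, adjusted p = 0.0383), were lower too. Col1a2 and Mfap4, called lower, and Timp3, a protease inhibitor called higher, are named after their values were seen, and Col1a1 did not pass (-1.79 ± 0.42, adjusted p = 0.0675). With plate C alone Col1a2 and Mfap5 were no longer called (adjusted p = 0.0982 and 0.0574), and Col5a1 turned to 0.43 in 7 mice.

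Fibroblast markers are given beside the matrix genes: all 9 were detected at both stages, they summed to 3613 and 2709 CPM at 2w against 1360, 2398, 1470 and 1773 CPM in 5w_4 to 5w_7, and 2 of the 9 (Col1a2 and Col3a1) were called lower. Their part in the matrix result was not tested. The plate C cells alone held 2683 and 2064 CPM, and there the matrix list had 6 called lower and 1 higher of 42, with a median of -0.68. Fstl1, a secreted glycoprotein made by fibroblasts and stressed myocytes, stood at 312 and 267 CPM at 2w and at 74.2, 79.3, 103 and 82.1 CPM in 5w_4 to 5w_7 (-1.78 ± 0.21, adjusted p = 0.00847), with 309 CPM in 5w_1. It was lower in plate C as well (-1.23, adjusted p = 0.0214).

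Of 15 MHC class I genes 3 were called lower at 5w and 0 higher (B2m, H2-K1 and Tap1). Of the 15, 14 were negative, and the median was -1.51 (-0.86 in 7 mice). In the 4 mice of plates G and H 10 lay below both 2w mice, against 15.2% of all genes tested. B2m, the light chain of MHC class I, stood at 2275 and 1105 CPM at 2w and at 616, 445, 625 and 707 CPM in 5w_4 to 5w_7 (log2 fold change -1.51 ± 0.28, adjusted p = 0.0337), against 2267 CPM in 5w_1. H2-K1, a class I heavy chain whose reads may be shared with its close paralogs, stood at 698 and 374 CPM against 184, 155, 182 and 256 CPM (-1.48 ± 0.27, adjusted p = 0.0316). For both genes 2w_1 stood well above 2w_2, and the lower 2w mouse was still above all 4 mice. Tap1, which carries peptides to class I molecules, gave -2.57 ± 0.46 (adjusted p = 0.0286, and 0.0526 with plate C alone).

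Of 27 interferon response genes 3 were called lower and 0 higher, 25 were negative, and the median was -1.53. In the 4 mice 12 lay below both 2w mice, against 15.2% of all genes tested. In 7 mice 0 were called (3 at an unadjusted p under 0.05), 14 were negative and the median was -0.07, so that this list's direction rests on leaving out 5w_1. Ifit3, an RNA-binding antiviral protein, stood at 109 and 37.1 CPM at 2w and at 12.3, 9.51, 7.82 and 7.06 CPM in 5w_4 to 5w_7 (log2 fold change -3.00 ± 0.44, adjusted p = 0.014, and 0.25 ± 1.63, adjusted p = 0.991, in 7 mice). Irf7, the transcription factor that amplifies interferon production, stood at 120 and 24.3 CPM against 0.881, 8.69, 5.53 and 4.71 CPM (-3.89 ± 0.72, adjusted p = 0.0316). Bst2, the tether of budding virus, stood at 78.7 and 34.8 CPM against 13.9, 12, 14.4 and 17.1 CPM (-2.00 ± 0.38, adjusted p = 0.0349). All 3 were higher in 2w_1 than in 2w_2 and higher still in 5w_1, at 403, 186 and 94.9 CPM. Outside this list, Gbp10 and Gbp6, interferon-induced guanylate-binding proteins with near-identical copies, were at 371 and 241 CPM in 2w_1 but at 32.8 and 16 CPM in 2w_2, against 10.2 to 17.3 and 7.06 to 13.6 CPM in 5w_4 to 5w_7 (-3.98 ± 0.67 and -3.58 ± 0.73, adjusted p = 0.024 and 0.0422). In both genes 2w_2 lay far nearer to the 5w mice than to 2w_1. Ifi27l2a, another interferon-induced gene outside the list, gave -2.65 ± 0.44 (adjusted p = 0.0232, and 0.0556 with plate C alone). In 7 mice its sign turned, to 1.10 ± 1.86 (adjusted p = 0.946).

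The stretches before the starts of Ifit3 and B2m, the called interferon and class I genes, are printed because both hold GAAA, any 2 bases (N) and GAAA again, the core of the element bound by interferon regulatory factors such as Irf7. Capitals mark the matches, which read on the other strand in Ifit3. From RefSeq on GRCm38.p6, they lie at chr19:34583279-34583528 and chr2:122147437-122147686, both on the plus strand and just upstream of the first exon. The Ifit3 matches begin 156 and 122 bases before the start and the B2m match 139 bases before it.
Ifit3: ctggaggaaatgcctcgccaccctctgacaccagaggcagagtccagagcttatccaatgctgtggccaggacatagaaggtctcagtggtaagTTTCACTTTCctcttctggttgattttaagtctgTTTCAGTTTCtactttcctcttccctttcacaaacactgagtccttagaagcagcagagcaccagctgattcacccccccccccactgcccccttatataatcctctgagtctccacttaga
B2m: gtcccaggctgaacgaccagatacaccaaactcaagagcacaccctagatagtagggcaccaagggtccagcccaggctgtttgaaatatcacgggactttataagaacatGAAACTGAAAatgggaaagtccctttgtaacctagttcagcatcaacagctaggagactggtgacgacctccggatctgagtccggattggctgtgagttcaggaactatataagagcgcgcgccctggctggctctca
Of 6 called genes searched (B2m, H2-K1, Tap1, Ifit3, Irf7 and Bst2), 3 hold the letters (B2m, Bst2 and Ifit3), against 2.98% of all 32851 windows. Here too a gene was counted over all its windows and the share over single windows.

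MHC class II genes, which present antigen mainly in macrophages and other professional cells, had a median of -3.74, with 5 of 6 tested called lower, 0 higher and 6 negative. In 7 mice the median was -0.28, with 0 called (1 at an unadjusted p under 0.05) and 5 of 6 negative. H2-Ab1 stood at 178 and 240 CPM at 2w and at 26.3, 15.5, 15.9 and 6.18 CPM in 5w_4 to 5w_7 (log2 fold change -3.70 ± 0.41, adjusted p = 0.00847), with 424 CPM in 5w_1. H2-Aa stood at 102 and 186 CPM against 15.3, 1.63, 15.3 and 3.24 CPM (-3.96 ± 0.65, adjusted p = 0.0222). H2-Eb1 and Cd74 were lower too (-3.60 ± 0.65 and -3.78 ± 0.65, adjusted p = 0.0307 and 0.0255), though Cd74 turned to 0.61 ± 2.00 (adjusted p = 0.977) in 7 mice. H2-DMa rested on 1 to 26 UMIs per mouse in 5w_4 to 5w_7 (adjusted p = 0.0288). Macrophage markers are given beside them, none of the 8 in the table being at 0 at either stage. They summed to 509 and 731 CPM at 2w and to 126, 118, 80 and 73.8 CPM in 5w_4 to 5w_7, and 3 of 7 tested were called lower, the complement genes C1qb (-3.22 ± 0.33, adjusted p = 0.00847) and C1qc (-3.18 ± 0.36, adjusted p = 0.00847) and the lysozyme gene Lyz2. In 7 mice C1qb and C1qc turned to 0.78 ± 1.85 and 1.02 ± 1.92 (adjusted p = 0.965 and 0.953), 5 of 8 tested macrophage markers were positive, and their median was 0.58.

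Within 2w, the cells of plate D held these genes at higher CPM than those of plate C. The macrophage markers summed there to 1335 CPM in 2w_1 and 4050 CPM in 2w_2, against 336 and 128 CPM on plate C. H2-Aa stood at 214 and 1216 CPM on plate D and at 84.4 and 27.8 CPM on plate C. With plate C alone 0 of the 6 class II genes were called, with adjusted p = 0.0501 for H2-Ab1 and 0.102 for H2-Aa, and all 6 remained negative with a median of -2.43. The macrophage marker list then had 0 called and a median of -1.19. Wfdc17, a gene of activated macrophages, stood at 72.7 CPM in 2w_1 and 562 CPM in 2w_2, and its fold change went from -3.23 ± 0.65 (adjusted p = 0.0465) to -0.34 (adjusted p = 0.744) with plate C alone. The iron store gene Ftl1 also lost its call there (adjusted p = 0.417). B2m, H2-K1, Ifit3, Irf7, Bst2, Gbp10 and Gbp6 kept theirs, with adjusted p from 0.015 to 0.0462.

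**Figure D4:**
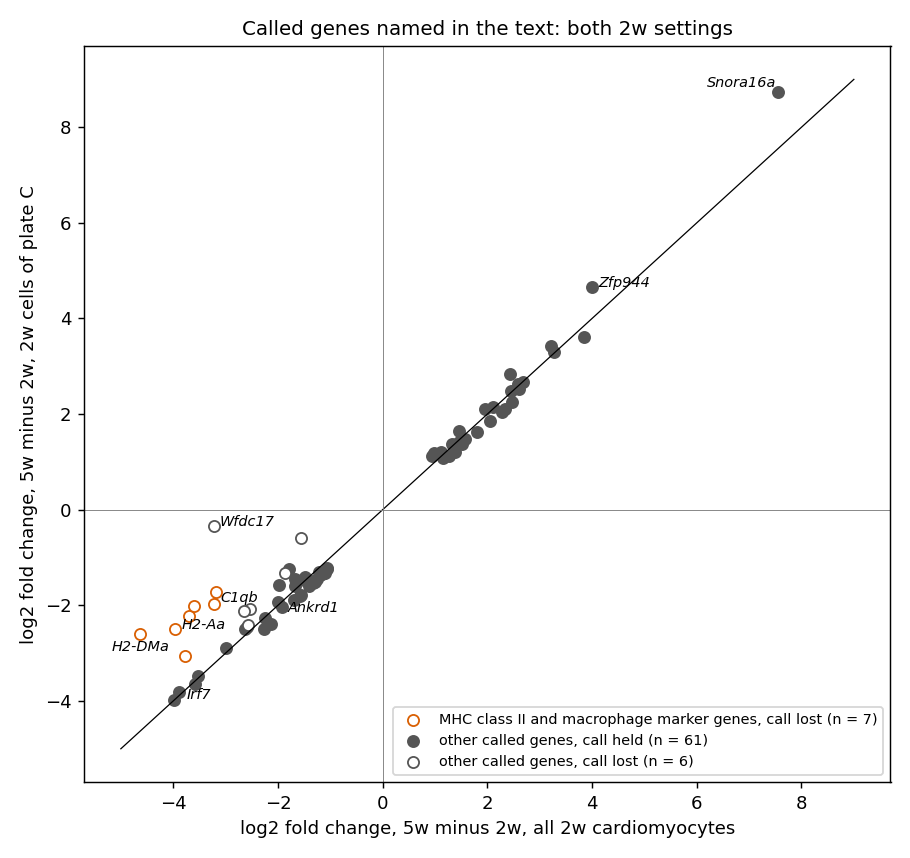
Log2 fold changes (5w minus 2w, without 5w_1) of 74 called genes, with all 2w cardiomyocytes on the x axis and with the 2w cells of plate C on the y axis; the line marks equal values and open circles mark genes no longer called. All 7 MHC class II and macrophage marker genes lost the call and lie above the line, and 6 of the other 67 lost it.

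Called markers of vessel cells, 4 of 8 mural and 3 of 9 endothelial, were all higher at 5w, against 0.79% of all genes tested. Kcnj8, a potassium channel subunit of pericytes, stood at 16 and 11.1 CPM at 2w and at 132, 47, 75.8 and 78 CPM in 5w_4 to 5w_7 (log2 fold change 2.60 ± 0.43, adjusted p = 0.0226), with 433 CPM in 5w_1. Of the mural cell markers all 8 were positive (7 without scaling factors), and the median was 1.60 (2.29 in 7 mice). The other 3 called, Rgs5, Pdgfrb and Vtn, were named after their values were seen and had log2 fold changes of 1.46 ± 0.26, 2.06 ± 0.27 and 2.28 ± 0.39. The 8 markers, all detected at both stages, summed to 484 and 413 CPM at 2w and to 1217, 782, 1096 and 1185 CPM in 5w_4 to 5w_7, and 4796 CPM in 5w_1. The called endothelial markers, Cdh5, Emcn and Flt1, also named after their values were seen, stood at log2 fold changes of 1.32 ± 0.24, 1.38 ± 0.26 and 1.46 ± 0.21, with 7 of 9 positive and a median of 0.43. Without scaling factors Flt1 alone was called, 5 of 9 were positive and the median was 0.16. The sum of the 9 overlapped, at 1674 and 2302 CPM against 2412, 2017, 2630 and 2854 CPM. All 7 of these calls held with plate C alone. Doublets were not called, and the share of vessel cells or of their RNA in the annotated cardiomyocytes was not tested.

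The called hypoxia response genes were split in direction. Vegfa, the vessel growth factor made by myocytes, stood at 144 and 182 CPM at 2w and at 63.3, 78.8, 75.6 and 85 CPM in 5w_4 to 5w_7 (log2 fold change -1.12 ± 0.22, adjusted p = 0.0371), a non-overlapping fall. Epas1, the oxygen-sensing factor HIF-2 alpha, which endothelial cells express strongly, stood at 130 and 132 CPM against 280, 275, 274 and 347 CPM (1.16 ± 0.21, adjusted p = 0.0286). Ndrg1, a gene induced by low oxygen, stood at 28.7 and 11.9 CPM against 65.9, 84, 73.7 and 93.6 CPM (1.95 ± 0.38, adjusted p = 0.0376). These were the 3 genes called of 17 hypoxia response genes, whose median was -0.17, against 1.52% called of all genes tested. Of 23 angiogenic and paracrine ligand genes 2 were called lower (Vegfa and Fstl1) and 0 higher, with a median of 0.02.

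Few stress and turnover genes were called by edgeR. Hspa1b, an inducible HSP70 chaperone with a near-identical copy, stood at 356 and 194 CPM at 2w and at 1334, 821, 1883 and 735 CPM in 5w_4 to 5w_7 (log2 fold change 2.11 ± 0.43, adjusted p = 0.0421), with 141 CPM in 5w_1. It was the 1 gene called of 25 heat shock and chaperone genes (median 0.17, and -0.06 without scaling factors), against 1.52% of all genes tested. DESeq2 called 6 of the 25 higher and 1 lower, and plate C alone 2 higher and 1 lower. In 5w_4 to 5w_7, 9 lay above both 2w mice and 5 below, against 12.9% and 15.2% of all genes tested. Btg1, an antiproliferative gene of the immediate early list, was higher (1.58 ± 0.28, adjusted p = 0.0288), the 1 gene called of 30 (23 positive, median 0.38), while Fos did not pass (0.34 ± 0.30, adjusted p = 0.592). The lysosomal proteases Ctsb and Ctsd were lower. Ctsd stood at 607 and 935 CPM against 257, 243, 230 and 225 CPM (-1.70 ± 0.21, adjusted p = 0.00847), with 154 CPM in 5w_1. Ctsb gave -1.67 ± 0.20 (adjusted p = 0.00847), and Gabarap, a membrane tag of autophagosomes, was higher at 0.95 ± 0.19 (adjusted p = 0.0418). Of 24 autophagy and lysosome genes these 3 were called (median -0.31). Clu, the secreted chaperone clusterin, stood at 894 and 1165 CPM at 2w and at 382, 396, 402 and 382 CPM in 5w_4 to 5w_7 (-1.41 ± 0.18, adjusted p = 0.011), an even level at 5w.

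Neat1, the nuclear RNA that builds paraspeckles, stood at 634 and 747 CPM at 2w and at 126, 217, 125 and 112 CPM in 5w_4 to 5w_7 (log2 fold change -2.27 ± 0.27, adjusted p = 0.00847). With 231 CPM in 5w_1, all 5 mice at 5w lay below both 2w mice. Translation genes showed single calls: Eif2s2, a subunit of the initiation factor eIF2, rose from 400 ± 11.6 CPM (n = 2) to 1145 ± 146 (n = 4) with 1.51 ± 0.21 (adjusted p = 0.0128). Eef1a2, the elongation factor of adult muscle, went from 113 and 118 CPM to 49.7, 59.2, 54.5 and 58 CPM (-1.07 ± 0.21, adjusted p = 0.0406). Of 77 ribosomal protein genes 2 were called higher (Rpl4 and Rpl10, both with processed copies in the genome), 0 lower, and the median was -0.01.

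Leaving aside predicted genes, ribosomal protein genes and genes whose stages overlapped, the 12 highest fold changes among well-expressed called genes were those of Snora16a, Zfp944, Sncg, Tmem101, Vav2, Ubtf, Kcnj8, Nrf1, Fmo2, Pop4, Mepce and Efnb1. Snora16a, a small nucleolar RNA, held 9 and 8 UMIs at 2w and 102, 129, 557 and 539 UMIs in 5w_4 to 5w_7 (log2 fold change 7.55 ± 1.05, adjusted p = 0.0128), and 11 UMIs in 5w_1. Sncg, gamma-synuclein, stood at 7.78 and 2.44 CPM against 98.2, 92.4, 47.1 and 63.6 CPM (3.85 ± 0.55, adjusted p = 0.0137), with 50.2 CPM in 5w_1, a gap between stages in every mouse. Vav2, an exchange factor of small GTPases, stood at 47.6 and 32.8 CPM against 146, 329, 255 and 784 CPM (3.22 ± 0.62, adjusted p = 0.0362). Ubtf, a factor of ribosomal RNA transcription, stood at 27.7 and 21.1 CPM against 90.6, 70.6, 200 and 269 CPM (2.68 ± 0.54, adjusted p = 0.0408). The 4 mice varied widely in these genes, and 8 of the 12 were highest in 5w_7, the mouse with the highest mitochondrial share (85.7%). In 3 of the 12 (Vav2, Tmem101 and Nrf1) the 4 mice stood in the same order as their mitochondrial shares; the part of that share in the rise was not tested.

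A predicted gene named Gm26924, called and abundant and chosen after its values were seen, took 1.15% and 1.15% of the non-mitochondrial UMIs at 2w and 5.81%, 14.4%, 6.3%, 10.3% and 7.3% in 5w_1 and 5w_4 to 5w_7. Its log2 fold change was 3.29 ± 0.35 (adjusted p = 0.00847), and within 2w it was higher on plate D (20049 and 28234 CPM, unscaled) than on plate C (9666 and 8439 CPM). Other predicted genes, Gm13340 and Gm13341, exceeded Gm26924 in both 2w mice. Shares of Gm13340 were 8.36% (2w_1), 5.51% (2w_2), 4.04% (5w_1), 7.71% (5w_4), 16.6% (5w_5), 8.62% (5w_6) and 20.2% (5w_7). For Gm13341 the shares, listed by mouse in that order, were 3.01%, 2.21%, 1.26%, 3.06%, 6.25%, 4.55% and 9.55%. Within 5w_4 to 5w_7 these shares ranked as the mitochondrial shares did, a link that was not tested. Both genes lay below the 2w mice in 5w_1 and above them in 5w_5, 5w_6 and 5w_7. Neither passed (adjusted p = 0.21 and 0.141). Such shares lower the CPM of all other genes before scaling. With all predicted genes left out before scaling, 304 genes were called, 153 higher and 151 lower, and 71 of 74 called genes named here kept their call.

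Several lists had 0 genes called by edgeR in either direction in 6 mice: intercalated disc, cardiac transcription factor, mitochondrial dynamics, ER stress, ubiquitin and proteasome, apoptosis, hypertrophic signalling, cell cycle and circadian genes. At an unadjusted p under 0.05 there were 5 of 17, 1 of 20, 8 of 24, 4 of 24, 5 of 29, 7 of 20, 8 of 31, 4 of 21 and 1 of 16, and DESeq2 called 2, 0, 2, 0, 1, 1, 4, 2 and 1. Plate C alone called Dsc2 of the first list and Psmc4 of the fifth, both named after their values were seen. Their medians ran from -0.41 (ubiquitin and proteasome genes) to 0.54 (circadian genes). Mt1, a metallothionein, and Hspb1, a small heat shock protein, did not pass (-0.47 ± 0.21 and 0.60 ± 0.33, adjusted p = 0.283 and 0.382).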

How the data were processed

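The authors deposited raw UMI counts, 1 row per gene and 1 column per cell, with an annotation of each cell's mouse, type and subcluster. The submitters' processing notes name Subread 1.4.6-p1, featureCounts, STAR 2.5.2b and the builds mm10 and GRCh37, but not their roles, the annotation or the use of strand. UMIs of CM cells were summed per mouse without the 34 mitochondrially encoded genes, with no further filter on cells and no doublet caller. Sums were fitted with edgeR 4.0.16 in R 4.3.3 (filterByExpr, TMM factors, robust glmQLFit, two-sided glmQLFTest, no covariate), with Benjamini-Hochberg adjustment over all genes tested and a threshold of 0.05. Standard errors are the absolute log2 fold change over the square root of F. CPM use the TMM factors of the 7-mouse fit, except marker sums and values by plate, which use the non-mitochondrial total, and they are not scaled by gene length. The tests were checked on simulated counts. Sequences are from RefSeq windows (GRCm38.p6), with tables joined in Python 3.11.15, numpy 2.4.6 and pandas 2.3.3.

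Named genes followed a rule: up to 12 called genes per direction with the largest fold change, log2 CPM averaging 5 or more and all mice at 5w on 1 side of both 2w mice, without predicted and ribosomal protein genes; up to 4 per list with the smallest p; and 22 genes given whatever the result, of which Cpt1b was too low to test. The members and lists were chosen with earlier results of these data known. Alternatives were other scaling (RLE, none), no filter, DESeq2 1.42.0, all stages in 1 fit, mitochondrial genes kept, cells thinned to 2000 UMIs and each mouse left out. Plate C alone, plate G or H alone and predicted genes left out were added after seeing the data. One list of the rule is not reported here.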

Additional observations from a re-analysis of the deposited data

Results flagged for a closer look

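Among 107 values examined over the mice at 5w, 1 mouse stood far from the rest in 45 with all 5 mice. Without 5w_1 this held in 5. In 40 of the 45 the mouse was 5w_1, that of plate E. Chance alone flags about 1 in 20 groups, and genes are not independent. Most of the genes examined had been called in the fit without 5w_1. That choice favours close values in 5w_4 to 5w_7, so the rate does not apply to them.

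Muscle genes were low in 5w_1, at 170 CPM for Mybpc3, 901 for Ttn, 0.913 for Srl, 182 for Ckmt2, 836 for Mb, 43.8 for Clu and 17.3 for Eef1a2. Matrix genes were high there, at 454 CPM for Col3a1, 567 for Col1a2, 203 for Col5a1, 104 for Fbn1 and 309 for Fstl1. So were genes of antigen presentation, at 2267 CPM for B2m, 128 for Tap1, 728 for H2-K1, 424 for H2-Ab1, 548 for H2-Aa, 478 for H2-Eb1 and 204 for Cd74. Interferon response genes stood at 403 CPM for Ifit3, 186 for Irf7, 94.9 for Bst2, 42 for Gbp10, 42 for Gbp6 and 5206 for Ifi27l2a. Macrophage genes stood at 884 CPM for C1qb, 631 for C1qc, 368 for Wfdc17 and 309 for Ctsb. Mural cell genes stood at 433 CPM for Kcnj8, 2332 for Rgs5, 321 for Pdgfrb and 353 for Vtn. Marker sums in 5w_1 were 9306 CPM for fibroblasts, 3241 for macrophages, 10.8 for T cells, 174 for B cells, 4796 for mural cells, 37903 for erythroid cells and 120 for the epicardium.

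Other mice stood apart in a few values. With all 5 mice these were 5w_7 for Snora16a (159 CPM), Fmo2 (180 CPM) and Zfp944 (378 CPM), 5w_6 for H2-DMa (2.48 CPM) and 5w_5 for the atrial marker sum (1303 CPM). Among the 4 mice without 5w_1 these were 5w_5 for Myh7 (1833 CPM) and Neat1 (217 CPM), 5w_4 for Jph2 (31.4 CPM), 5w_6 for H2-DMa (2.48 CPM) and 5w_7 for Epas1 (347 CPM).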

How the results depend on the processing

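No paired analysis was possible because the stages share only replicate number 1 among mice with cardiomyocytes, and a number only names a mouse. With 7 mice the count of called genes was 0, and it went to 241 without the low-count filter, 144 with DESeq2 and 1 with thinned cells; leaving out single mice gave 0 to 211, the highest without 5w_1. In 6 mice the count of 211 went to 1122 without the filter, 1055 with DESeq2, 91 with all stages in 1 fit (plate E left out), 490 with thinned cells, and 44 to 143 with single mice left out, the lowest without 2w_1 and the next without 2w_2. With the 5w mice of plate G alone it was 0 (edgeR, 2166 at an unadjusted p under 0.05) and with plate H alone 99. The cause of these changes was not tested. Of 75 called genes named here, 9 kept the call in each of the 6 fits that leave out a mouse (C1qb, C1qc, Flnc, Fstl1, Gm26924, H2-Ab1, Neat1, Sncg and Srl), 43 lost it both without 2w_1 and without 2w_2, and 62 kept it with plate C alone.

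C1qb, C1qc and H2-Ab1, listed just above, lost the call with plate C alone. Without scaling factors 66 of the 75 kept it. Among those that lost it there were the higher genes Atp5h, Hspa1b, Epas1, Gabarap, Rpl4 and Rpl10. With 5w_1 included, 69 of the 75 lost the call with the same sign and 6 changed sign: Col5a1 (0.43), Cd74 (0.61), Ifit3 (0.25), Ifi27l2a (1.10), C1qb (0.78) and C1qc (1.02). Genes near 0 also changed sign, with single mice left out giving -0.55 to 0.59 for Nppa, -0.13 to 0.36 for Nppb, -0.34 to 0.04 for Atp2a2 and -0.14 to 0.12 for Pln. Nppa went to 0.59 without 2w_1, 0.12 without 5w_4 and 0.15 with plate G alone, Nppb to -0.03 without scaling factors, -0.13 without 5w_6, -0.04 with plate C alone, -0.29 with plate G alone and -0.13 with 5w_1, and Atp2a2 to 0.04 without 2w_2. Pln went to 0.03 with RLE factors and with DESeq2, 0.01 with mitochondrial genes kept, 0.04 with thinned cells, 0.12 without 2w_1, 0.05 without 5w_5, 0.08 without 5w_7 and 0.10 with plate G alone. Sums of 54 cells (5w_1) and genes at a few UMIs limit the precision.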

Other observations

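Across all 14 mice with cardiomyocyte sums, scaled in 1 fit, several genes called here stood apart at 1 of the 2 stages. Ankrd1 was at 1450 and 1541 CPM at 0w, 5378 and 4641 at 2w, 1083, 1683, 1556 and 840 in 5w_4 to 5w_7, 5148 and 4544 in 8w_2 and 8w_3, and 10537 and 12893 at 11w. On plate E it was at 155 in 5w_1 and 367 in 8w_1. The range of the 5w mice of plates G and H held both 0w mice. Flnc was at 44.4 and 33.7 CPM at 0w, 122 and 175 at 2w, 27.4 to 39 in 5w_4 to 5w_7, 64.4 and 31.1 in 8w_2 and 8w_3, 60.3 and 131 at 11w, and 0.831 and 0.222 on plate E. It thus lay at 8w_3 within the 5w range, unlike Ankrd1. Mybpc3 was at 2372 and 3172 CPM at 2w and at or below 1325 CPM in the 12 other mice, and Myh6 at 12587 and 17360 CPM at 2w and at or below 8656 CPM in the others, so for these genes the 2w mice stood apart.

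Other genes stood apart on plates G and H. Eif2s2 was at 891 to 1189 CPM in 5w_4 to 5w_7 against 230 to 505 CPM elsewhere (10 mice, 5w_1 included). Atp5h was at 4980 to 6940 CPM in 5w_4 to 5w_7 against 771 to 3537 CPM elsewhere. These comparisons were made after seeing the values and were not tested. The non-mitochondrial totals of the same 4 mice came to 0.542 to 0.806 of the authors' UMI numbers, and those of 11w came to 0.48 and 0.477.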
